A study of Mus musculus with 19 samples.

Results

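Transcript levels were compared between CD8 T cells of 2 receptor specificities sorted from C57BL/6 mice with malignant liver lesions at days 20 to 21. The transgenic receptor of SV40-I cells sees a large T antigen peptide of the virus SV40, and these cells were sorted by CD8 and Thy1.1. The transgenic receptor of OT-I cells sees a peptide of chicken ovalbumin, and these cells were sorted by CD8 and Ly5.1. Libraries were taken by their titles, 3 SV40-I and 3 OT-I, which makes 6 of the 19 libraries of the study. All genes but the T cell receptor segments were described, 16247 of the 16404 genes that passed a filter on low counts. The comparison addresses how T cells that can recognise the tumour differ from bystander cells in the same kind of lesion.

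The study sequenced RNA of sorted CD8 T cells in 7 groups, built around the transcription factor TOX. The 9 other ex vivo libraries were used here to estimate the spread and to place levels. They were naive SV40-I cells sorted by CD8 and low CD44, and SV40-I cells of days 8 to 9 sorted as high or low for PD1, LAG3 and CD39, each with 3 libraries. The last 2 groups are called marker-high and marker-low. Headings of the marker-high and marker-low tables carry the letters WT and KO, while the labels give no genotype. Cultured libraries of TOX-GFP or GFP cells were not used here. The receptor, the congenic mark used for sorting and the transgenic line all differ between SV40-I and OT-I cells, so specificity cannot be told apart from them. Titles and context labels give lesions as the origin and the source field gives splenocytes, so the tissue sampled is not certain.

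A CD8 T cell that meets its antigen for weeks without clearing it enters a state called exhaustion or dysfunction. Inhibitory receptors such as PD1 and LAG3 stay on its surface, TOX and receptor-induced factors such as NR4A proteins are expressed, and factors of naive and memory cells such as TCF1 are lost. A bystander cell reaches the tissue through chemokine receptors and integrins without meeting its antigen there, and can keep the receptors for IL-7 and IL-15 and the exit receptor S1PR1 that memory and effector cells use to survive and recirculate.

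Totals ran from 37006508 to 54195918 counts per library. Levels are given as CPM, counts scaled to library size as edgeR defines them, always in the order of libraries 1, 2 and 3. Chi-square tests of counts between libraries of a group gave 96.2 to 230 per degree of freedom, so none was a repeat of another and each was kept. Separate mice are not stated for the libraries, and the spread was estimated over all 15 ex vivo libraries. The p-values cover that spread, which could be technical in part and takes in groups not compared here. The first principal component of the 6 libraries separated SV40-I from OT-I and held 44.7% of the variance.

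Markers of CD8 T cells were abundant in all 6 libraries, with Cd3e at 2162 to 7719 CPM and Cd8b1 at 2803 to 4207 CPM. Transcripts of other cells were also present. Summed hepatocyte transcripts (18 genes, none at 0 in all 6 libraries) reached 1734 CPM in SV40-I library 2 and 1105 and 2144 CPM in OT-I libraries 2 and 3, against 45.0 to 82.7 CPM in the other 3, and no hepatocyte gene was called. Summed erythroid and platelet transcripts stood at 104 to 839 CPM in SV40-I and 1333 to 3353 CPM in OT-I libraries, with none of the 11 genes called. The summed macrophage list ran from 60.4 to 1096 CPM in SV40-I and from 333 to 681 CPM in OT-I libraries, and the neutrophil list from 3.92 to 1349 and from 341 to 2189 CPM. Mitochondrially encoded genes took 0.0509 to 0.175% of counts in SV40-I and 0.233 to 0.319% in OT-I libraries. Beyond the 2 settings given for hepatocyte transcripts after the counts of called genes, a further fit left out listed genes of other cells. Receptor segments and mitochondrial genes were left out of it too, and its counts are given with the alternatives below. Other transcripts of such cells stayed in that fit, so their part in the results was not tested.

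Of the 16247 genes, 790 were higher in SV40-I cells (4.86%) and 672 were lower (4.14%), 9.00% in all, at an adjusted p under 0.05 (edgeR quasi-likelihood test, Benjamini-Hochberg adjustment over all genes). Differences were large: the median size among called genes was 2.03 on the log2 scale for those higher and 2.24 for those lower, and 272 and 252 genes passed 3 on that scale. OT-I libraries held no count of 63 of the genes that were higher, and SV40-I libraries held no count of 46 of the genes that were lower. The 3 libraries of one group all lay above the 3 of the other in 782 of the 790 and in 669 of the 672, against 28.7% of all genes tested. Without 1 library at a time the counts ran from 412 to 585 higher and from 446 to 511 lower, and 336 and 333 genes were called at every omission. Where leaving out 1 library ended the call of a gene named below, the highest adjusted p reached and the libraries are given beside it. With summed hepatocyte transcripts as a covariate, 644 and 573 genes were called, and without the 3 libraries richest in them, which leaves 2 SV40-I libraries and 1 OT-I library assumed to vary like the other groups, 74 and 143. Log2 differences below are SV40-I minus OT-I with the standard error, from that fit. In bulk RNA, fewer cells expressing a gene and less RNA of it per cell cannot be told apart.

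**Figure D1:**
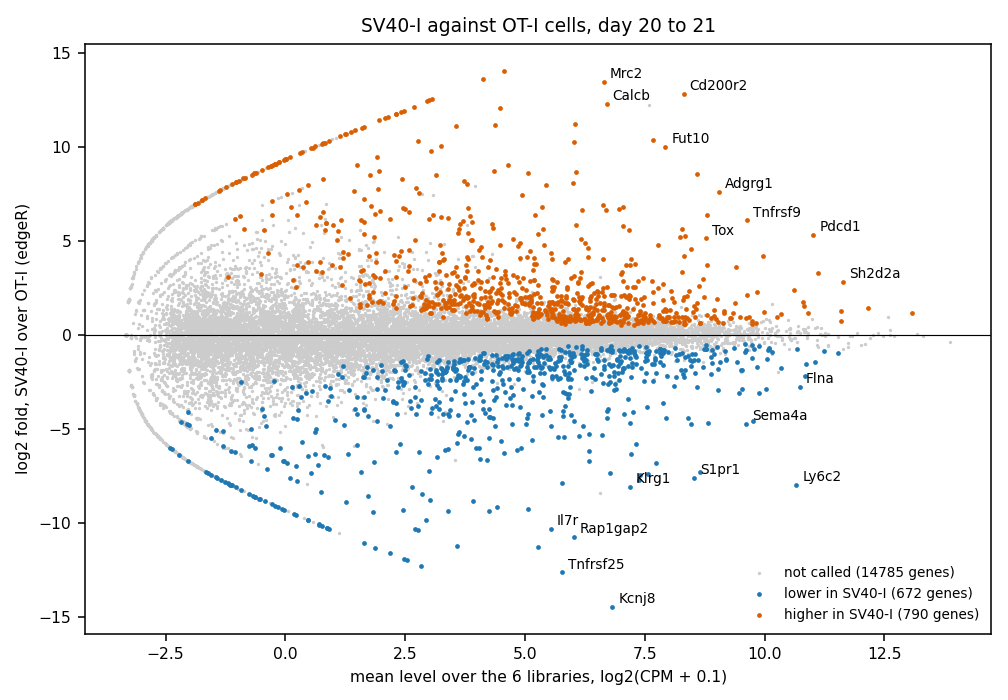
Each point is 1 of 16247 genes, with its mean level over the 6 libraries on the horizontal axis, as log2(CPM + 0.1), and its log2 fold of SV40-I over OT-I on the vertical axis. Orange marks the 790 genes higher in SV40-I cells, blue the 672 lower and grey the 14785 not called. Curved rows of points at the edges are genes with no count in one group, whose fitted folds depend on the prior count.

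Genes were read in 37 lists of T cell biology with 886 members. Counts of called members can be read against the shares over all tested genes, 4.86% higher and 4.14% lower. Some lists lay near these shares, such as JAK, STAT and SOCS genes (4.35% and 4.35%) and amino acid transporters (5.88% and 5.88%). Others lay far above, such as inhibitory receptors (54.2% and 20.8%). No test of a list against these shares is given. The median log2 difference over all tested genes was -0.05. The lists with the highest medians were the TOX family (5.12), inhibitory receptors (1.92), feedback inhibitors of receptor signalling (0.95) and receptors and ligands of neuropeptides and amines (0.94). The lowest were homing receptors (-1.69), factors of naive cells (-1.53), mitochondrially encoded respiratory genes (-1.45), integrins and adhesion genes (-1.45), interferon-stimulated genes (-1.35) and heat shock chaperones (-1.003). Housekeeping lists stood near the median of all genes: cytosolic ribosomal proteins at -0.29 with none of 77 called (lowest -0.87, highest 0.46), nuclear-encoded respiratory genes at -0.03 with 1 of 36 called, and replication and mitosis genes at -0.06 with 5 of 40 called.

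**Figure D2:**
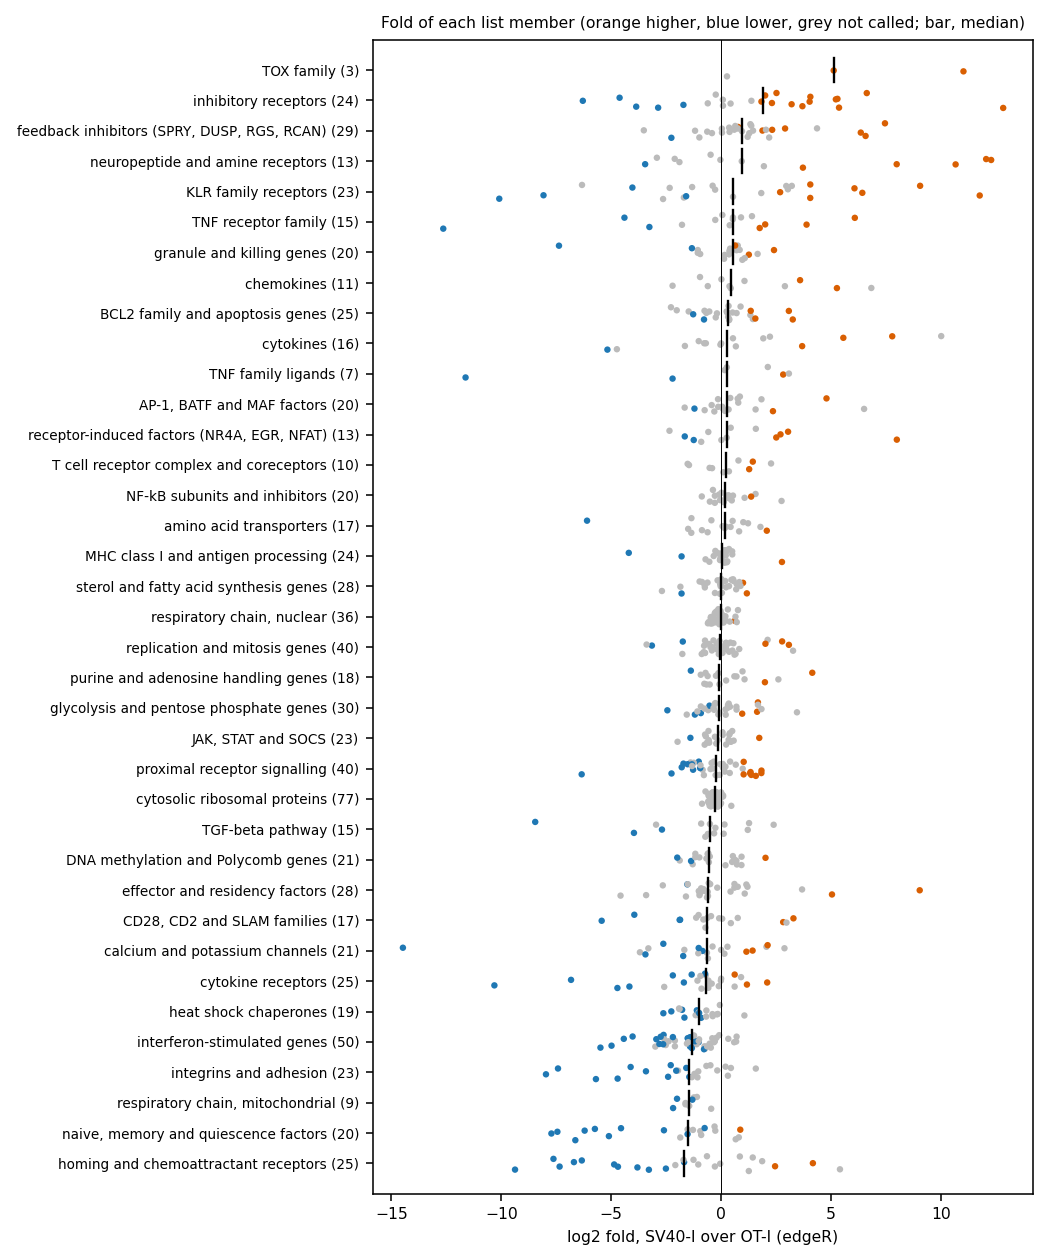
Each row is a gene list with the number of members tested in brackets, and each point is a member placed by its log2 fold of SV40-I over OT-I (orange higher, blue lower, grey not called). Black bars are list medians, which run from 5.12 for the TOX family to -1.69 for homing receptors.

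Inhibitory receptors were the list with the most members higher: of 24 tested, 13 were higher and 5 lower. Pdcd1, the gene of PD1 (chr1:94038305-94052553), stood at 3528, 3133 and 5469.7 CPM in the SV40-I libraries and 127, 74.7 and 108 CPM in the OT-I libraries (5.29 ± 0.42, adjusted p = 1.26e-05). Lag3, whose product binds MHC class II (chr6:124904361-124911705), stood at 120.2, 55.3 and 50.6 CPM in the SV40-I libraries and 1.86, 2.26 and 1.37 CPM in the OT-I libraries (5.36 ± 0.51, adjusted p = 3.76e-05). Tigit, which competes with a costimulatory receptor for shared ligands, stood at 271, 245 and 323 CPM in the SV40-I libraries and 24, 12 and 15.5 CPM in the OT-I libraries (4.03 ± 0.43, adjusted p = 9.06e-05). For all 3 genes the lowest SV40-I library lay far above the highest OT-I library. Entpd1, the gene of the ectoenzyme CD39, was at 379, 440.3 and 508 against 73.6, 86.4 and 108 CPM (in this order hereafter, SV40-I against OT-I; 2.31 ± 0.52, adjusted p = 0.0138, but up to 0.0651 without OT-I library 1 or OT-I library 2). Havcr2, which encodes TIM-3, was at 39.8, 101 and 64.7 against 5.25, 5.97 and 1.15 CPM, higher in every SV40-I library, but its call rested on all 6 libraries (4.06 ± 1.14, adjusted p = 0.0423, but up to 0.142 without any 1 of the 6 libraries). The same held for Cd101, a receptor of late dysfunctional cells, at 229, 208 and 363 against 36, 61.7 and 42 CPM (2.52 ± 0.7, adjusted p = 0.0419, but up to 0.142 without any 1 of the 6 libraries).

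Genes of the CD200 receptors were also higher. Cd200r2 (chr16:44867097-44915840) stood at 609, 513 and 791 CPM in the SV40-I libraries and 0.0235, 0.0995 and 0.128 CPM in the OT-I libraries (12.83 ± 2.51, adjusted p = 0.00596). Cd200r1, which encodes the inhibitory receptor for CD200, was at 52.3, 207 and 173 against 0.0941, 3.68 and 0.619 CPM (6.62 ± 1.43, adjusted p = 0.0111, but up to 0.0562 without OT-I library 3). Cd200r4 was at 175, 313 and 282 against 21.5, 23.2 and 14.6 CPM (3.7 ± 0.78, adjusted p = 0.00936, but up to 0.0503 without OT-I library 3). These genes are neighbours with similar sequences, so the split of fragments between them is uncertain. Each SV40-I library was above each OT-I library for all of them. OT-I libraries were near 0 for Cd200r2 but above the naive mean of 8.15 CPM for Cd200r4. Cd200 itself, the ligand, was at 12.5, 16.7 and 13.3 against 1.79, 0.846 and 1.96 CPM (3.21 ± 0.78, adjusted p = 0.0217, but up to 0.109 without SV40-I library 2, OT-I library 1, OT-I library 2 or OT-I library 3). Cd244, a SLAM family receptor, was at 639.6, 657 and 472 against 17, 13 and 17.6 CPM, with no overlap between groups (5.22 ± 1.23, adjusted p = 0.0181, but up to 0.088 without OT-I library 1, OT-I library 2 or OT-I library 3).

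The same list held 5 members that were lower in SV40-I cells, among them the gene of an ectoenzyme, Nt5e. Btla, abundant on resting lymphocytes, stood at 0.968, 1.05 and 1.18 CPM in the SV40-I libraries and 15.4, 30.1 and 33.5 CPM in the OT-I libraries (-4.62 ± 0.7, adjusted p = 0.00112). Lair1, a collagen receptor, was at 1.79, 5.7 and 3.87 against 61.4, 48.3 and 56.1 CPM (-3.87 ± 0.51, adjusted p = 0.000503). Nt5e, the gene of CD73, which makes adenosine from AMP, was at 0, 0.459 and 1.29 against 37.7, 44.7 and 56.3 CPM (-6.29 ± 1.32, adjusted p = 0.00934). CD39 and CD73 act in sequence on extracellular nucleotides, and their genes went in opposite directions. Cd5, which sets receptor sensitivity, was at 174, 202 and 209.9 against 671, 540.2 and 714 CPM (-1.72 ± 0.22, adjusted p = 0.000397). The related Cd6 was at 290.0, 219 and 244 against 2151, 1544 and 1799 CPM (-2.87 ± 0.49, adjusted p = 0.0025). OT-I levels of Cd5 and Cd6 also exceeded those of naive cells, which averaged 217 and 815 CPM.

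Among transcription factors, Tox (chr4:6686353-6991557) stood at 702, 875 and 988 CPM in the SV40-I libraries and 19.2, 23.3 and 31.3 CPM in the OT-I libraries (5.12 ± 0.41, adjusted p = 1.26e-05). Naive cells averaged 102 CPM of Tox, above every OT-I library. Tox2, a close relative, was at 7.17, 6.47 and 3.83 CPM in SV40-I libraries and had no count in OT-I libraries, so that it was at least 250.4-fold higher against a floor of 3 counts over the OT-I group (adjusted p = 0.00137). Of 13 receptor-induced factors 4 were higher and 2 lower (median 0.25). Nr4a2, a nuclear receptor induced by antigen receptor signalling, was at 44.4, 18.8 and 18.4 against 0, 0.299 and 0.0214 CPM (7.99 ± 1.07, adjusted p = 0.000935). Its relatives were not called. Nr4a1 was at 14.3, 31 and 36.9 against 13.1, 38.4 and 17.5 CPM (adjusted p = 0.813). Nr4a3 was at 0.571, 0.257 and 0.129 against 1.6, 0.796 and 2.5 CPM (adjusted p = 0.123). Egr1, an early response factor, was at 47, 15.4 and 9.44 against 2.56, 3.21 and 2.93 CPM (3.04 ± 0.5, adjusted p = 0.0019). Irf8 was at 606, 362 and 249 against 56.9, 89.8 and 40.6 CPM (2.7 ± 0.55, adjusted p = 0.00751). Egr2 was highest in SV40-I library 1 and its call did not hold without 5 of the libraries in turn (106, 29.9 and 19.4 against 6.16, 14.8 and 6.36 CPM; 2.51 ± 0.73, adjusted p = 0.0498, but up to 0.264 without SV40-I library 1, SV40-I library 2, OT-I library 1, OT-I library 2 or OT-I library 3). Myc, which drives growth, was lower at 175, 109 and 90.6 against 338, 270.1 and 283 CPM (-1.25 ± 0.25, adjusted p = 0.0067).

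Among AP-1, BATF and MAF factors 2 of 20 were higher (10.0%) and 1 was lower (5.0%). Among effector and residency factors 2 of 28 were higher (7.14%) and 1 was lower (3.57%), near the shares over all genes (4.86% and 4.14%). Those that were higher include Nfil3, a bZIP repressor induced by cytokine and antigen signals, at 72.1, 82.9 and 87.6 CPM in the SV40-I libraries and 3.13, 2.39 and 3.22 CPM in the OT-I libraries (4.79 ± 0.78, adjusted p = 0.00192). Crem, a cyclic AMP responsive modulator, was at 35.7, 63.1 and 62.8 against 10.7, 13.3 and 7.52 CPM (2.36 ± 0.42, adjusted p = 0.00333). Hic1, a zinc finger repressor, was at 42, 28.6 and 14.1 against 0.565, 1.29 and 0.705 CPM (5.04 ± 0.62, adjusted p = 0.000276). Ikzf2, which encodes Helios, was at 3.57, 4.12 and 8.64 CPM in SV40-I libraries and had 1 to 3 counts over the OT-I libraries, a ratio of 706, with a 95% counting interval of 127 to 27894 (adjusted p = 0.00144). Naive SV40-I cells averaged 3.21 CPM of Ikzf2, near the SV40-I level of days 20 to 21. Id2, a partner of effector differentiation, was lower at 642, 1055 and 1156 against 3441, 2196 and 2649 CPM (-1.54 ± 0.37, adjusted p = 0.0188, but up to 0.0833 without SV40-I library 1 or OT-I library 1), while both levels were far above the naive mean of 91.6 CPM. Several factors often discussed in exhausted cells were not called. Batf was at 102, 149 and 161 against 119, 86.7 and 104 CPM (adjusted p = 0.555). Prdm1, the gene of BLIMP1, was at 60.7, 69.96 and 96.7 against 23.9, 41.8 and 37.1 CPM (adjusted p = 0.623). Eomes was at 0.0993, 2.35 and 6.06 against 9.57, 10.5 and 5.79 CPM (adjusted p = 0.347). Tbx21, the gene of T-bet, was at 188, 25.4 and 31 against 43, 64.5 and 37.4 CPM (adjusted p = 0.518), with SV40-I library 1 above all OT-I libraries and the other two below them.

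Of 20 factors of naive, memory and quiescent cells, 10 were lower and 1 higher. Tcf7, the gene of TCF1, stood at 2.26, 2.44 and 1.01 CPM in the SV40-I libraries and 325, 403 and 274 CPM in the OT-I libraries (-7.45 ± 1.08, adjusted p = 0.000847). Its partner Lef1 was at 1.51, 0.331 and 2.84 against 361, 318 and 307 CPM (-7.72 ± 0.99, adjusted p = 0.000376). Satb1, a chromatin organiser, was at 0, 0.165 and 0.365 against 11.1, 19 and 10.5 CPM (-6.21 ± 0.91, adjusted p = 0.000915). SV40-I libraries were close to 0 for all 3, and OT-I libraries lay between them and naive cells, whose means were 1276, 1330.5 and 54.9 CPM. Klf2, which drives S1pr1 transcription, was at 0.223, 1.03 and 0.0215 against 29.8, 20.3 and 19.7 CPM (-5.75 ± 0.99, adjusted p = 0.00257). Its relative Klf3 was at 0, 0.937 and 0.0215 against 23, 37 and 39.1 CPM (-6.63 ± 1.22, adjusted p = 0.00408). Pik3ip1, an inhibitor of PI3 kinase, was at 15.8, 5.27 and 13.5 against 81.5, 63.5 and 64.7 CPM (-2.6 ± 0.45, adjusted p = 0.00263). Btg1, the member that was higher, differed little (132, 99.4 and 86 against 57.4, 65.5 and 50.9 CPM; 0.87 ± 0.23, adjusted p = 0.0337, but up to 0.142 without SV40-I library 1, SV40-I library 2, OT-I library 1, OT-I library 2 or OT-I library 3).

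Of 25 receptors for leaving or moving between tissues, 11 were lower, 2 were higher and 12 were not called. S1pr1, the sphingosine phosphate receptor for exit into lymph and blood, stood at 1.54, 9.1 and 0.387 CPM in the SV40-I libraries and 685, 794 and 721 CPM in the OT-I libraries (-7.63 ± 1.21, adjusted p = 0.00156). S1pr5, used by effector and NK cells, was at 0.0496, 0.0368 and 0 against 24.4, 28.2 and 9.8 CPM (-9.38 ± 1.66, adjusted p = 0.00294). Gpr183, an oxysterol receptor that positions lymphocytes, was at 1.24, 4.76 and 4.77 against 324, 256 and 296 CPM (-6.34 ± 0.62, adjusted p = 5.32e-05). Among chemokine receptors Cxcr4 was at 0.124, 2.17 and 2.28 against 249.7, 59.9 and 169 CPM (-6.7 ± 0.88, adjusted p = 0.000453). The lymph node receptor Ccr7 was at 1.14, 13.3 and 8.17 against 106, 80.7 and 131 CPM (-3.81 ± 0.83, adjusted p = 0.0118). In none of these did the groups overlap. The naive mean of Ccr7, 4356 CPM, was above both late groups, whereas Gpr183 and Cxcr4 were higher in OT-I than in naive cells (114 and 34.9 CPM).

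Further members of that list were lower with calls that rested on several libraries. Cx3cr1, a fractalkine receptor of effector cells, was at 4.47, 14 and 14.2 against 264, 290.1 and 292 CPM (-4.7 ± 1.08, adjusted p = 0.0163, but up to 0.0709 without SV40-I library 1 or SV40-I library 3). The inflammatory receptor Ccr2 was at 0, 8.23 and 6.36 against 88.2, 143 and 196 CPM (-4.87 ± 1.35, adjusted p = 0.0405, but up to 0.106 without SV40-I library 2, SV40-I library 3, OT-I library 1, OT-I library 2 or OT-I library 3). Of the 2 that were higher, Ptger2, a prostaglandin E2 receptor, was at 124, 94.5 and 79.7 against 14.7, 22.6 and 17.2 CPM (2.45 ± 0.35, adjusted p = 0.000723). Ccrl2, which binds chemerin, was at 571, 599 and 646 against 33.5, 33.1 and 34.1 CPM (4.17 ± 0.7, adjusted p = 0.00227).

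Of 23 integrins and adhesion genes 11 were lower and none higher (median -1.45). Ly6c2, a GPI-anchored protein of memory and effector cells, stood at 2.23, 19.2 and 17.1 CPM in the SV40-I libraries and 3398, 2691 and 3601 CPM in the OT-I libraries (-7.97 ± 0.87, adjusted p = 0.000114). Its neighbour Ly6a, known as Sca-1, was at 52.4, 26.7 and 21 against 818, 842 and 961 CPM (-4.71 ± 0.58, adjusted p = 0.000284). Ly6c1 was at 0, 0.0368 and 0.086 against 2.85, 1.64 and 2.46 CPM (-5.7 ± 0.75, adjusted p = 0.000404), and fragments of Ly6c1 and Ly6c2 are hard to assign apart. Itgal, which encodes the LFA-1 alpha chain, was at 1218, 1098 and 1110.2 against 3388, 2792 and 3184 CPM (-1.45 ± 0.19, adjusted p = 0.000386). Itgb1 was at 12.4, 23.7 and 36.5 against 193, 396 and 190.3 CPM (-3.42 ± 0.46, adjusted p = 0.000544). Itgb7, a subunit of gut homing integrins, was at 29.3, 9.28 and 10.9 against 294, 359 and 206 CPM (-4.12 ± 0.62, adjusted p = 0.00107). Itgax, the gene of CD11c, which activated T cells as well as dendritic cells express, was at 0.0496, 3.84 and 2.67 against 429, 330.1 and 377 CPM (-7.42 ± 1.01, adjusted p = 0.000546). It made most of the summed dendritic list in OT-I libraries (348 to 442 CPM) but little of it in SV40-I libraries (38.2 to 53.9 CPM), and of the 7 genes of that list it was the only one called. Cd69, a mark of recent activation and of residency, was lower in SV40-I cells at 10.3, 46.1 and 21.8 against 95.8, 156 and 133 CPM (-2.29 ± 0.5, adjusted p = 0.0121, but up to 0.0548 without SV40-I library 3).

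**Figure D3:**
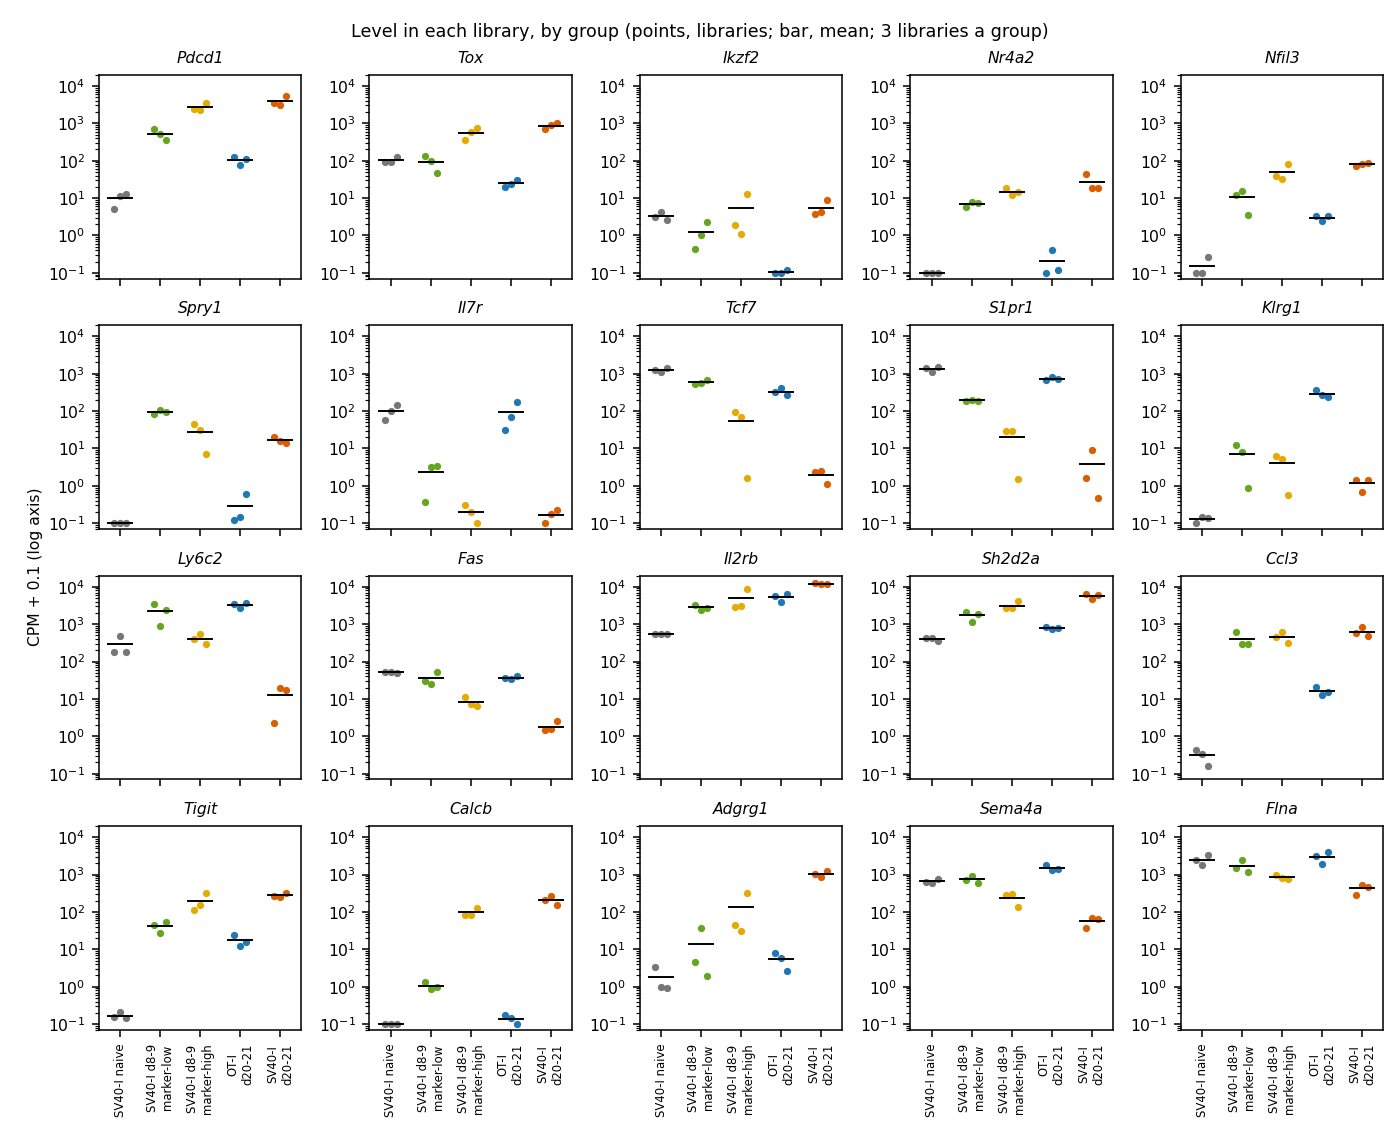
Levels of 20 genes in all 15 ex vivo libraries, as CPM + 0.1 on a log axis, with points for libraries and bars for group means. SV40-I cells of days 20 to 21 (orange) stand above OT-I cells (blue) for genes such as Pdcd1, Tox, Spry1 and Calcb and below them for Il7r, Tcf7, S1pr1 and Ly6c2, while OT-I cells lie close to naive cells (grey) for Fas and Il7r.

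The panels of levels also show Adgrg1 and Sema4a, chosen after their values were seen. Adgrg1, an adhesion receptor known as GPR56 of cytotoxic lymphocytes, stood at 1049, 862 and 1240.3 CPM in the SV40-I libraries and 7.93, 5.77 and 2.56 CPM in the OT-I libraries (7.6 ± 1.36, adjusted p = 0.00346). Sema4a, a semaphorin, ran in the opposite direction at 38.3, 67.5 and 65.8 against 1781, 1323 and 1441 CPM (-4.73 ± 0.34, adjusted p = 6.21e-06). Neither pair of groups overlapped.

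In the antigen receptor pathway, 2 of 10 genes of the receptor complex and coreceptors were higher. Cd3e (chr9:44998740-45009627) was at 5889, 6302 and 7719 CPM in the SV40-I libraries and 2506, 2162 and 2669.8 CPM in the OT-I libraries (1.44 ± 0.18, adjusted p = 0.000386). Cd8a was at 5292, 4179 and 3746 against 1829, 1727 and 1905 CPM (1.27 ± 0.17, adjusted p = 0.000541). Other chains of the complex were not called. Cd247 was at 801, 739 and 803 against 838, 598 and 755 CPM (adjusted p = 0.813). Cd3d was at 480.0, 597 and 642 against 896, 673 and 906 CPM (adjusted p = 0.534). Cd8b1 was at 2803, 3007 and 2972 against 4027, 3457 and 4207 CPM (adjusted p = 0.263). The interval of Cd247 lay within 1 on the log2 scale. Proximal signalling was mixed, with 8 of 40 higher and 9 lower. Zap70, the kinase recruited to the receptor, was higher at 714, 525 and 413 against 210.4, 228 and 201 CPM (1.37 ± 0.18, adjusted p = 0.000516). Dgkz, which removes diacylglycerol, was higher at 446, 369 and 296 against 116, 91.9 and 104 CPM (1.83 ± 0.27, adjusted p = 0.000915). Dgka, of the same activity, was lower at 247, 199 and 179 against 510.4, 585 and 477 CPM (-1.33 ± 0.16, adjusted p = 0.000266). Rasgrp2, an exchange factor for RAP1, was at 36.1, 25.3 and 26.2 against 149.7, 139.8 and 130.0 CPM (-2.26 ± 0.24, adjusted p = 8.39e-05). Prkcq, the kinase PKC theta, was at 42.4, 36.3 and 56.2 against 146, 190.4 and 131 CPM (-1.79 ± 0.25, adjusted p = 0.00071). The membrane adaptor Pag1, which recruits the kinase CSK, was at 0.0248, 0.0735 and 0.0645 against 5.6, 6.22 and 2.35 CPM (-6.35 ± 0.73, adjusted p = 0.000137).

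Of 29 inhibitors that receptor signalling itself induces, 7 were higher, 1 was lower and 21 were not called (median 0.95). Spry1, a Sprouty inhibitor of the RAS and ERK pathway, was at 20.2, 15.6 and 13.9 against 0.0235, 0.0498 and 0.512 CPM (6.35 ± 0.97, adjusted p = 0.00201). Its relative Spry2 was at 8.16, 7.31 and 7.27 against 0.0706, 0.0746 and 0.0854 CPM (6.57 ± 1.28, adjusted p = 0.00588). Dusp6, an ERK phosphatase, was at 768, 551 and 394 against 103, 139 and 100.5 CPM (2.32 ± 0.37, adjusted p = 0.00151). Rgs16, which switches off G protein signals of chemokine receptors, was at 60.8, 68.4 and 52.4 against 0.0235, 0.647 and 0.363 CPM (7.45 ± 1.1, adjusted p = 0.000935). OT-I libraries were near 0 for the Sprouty genes and Rgs16. Nab2, a corepressor of EGR factors, was at 68.1, 65.7 and 58.9 against 5.67, 11.4 and 8.56 CPM (2.91 ± 0.37, adjusted p = 0.000341). The adaptor Sh2d2a, known as TSAd, was among the most abundant genes that differed, at 6244, 4609 and 6006 against 845, 743 and 797 CPM (2.82 ± 0.25, adjusted p = 2.06e-05). Of 20 NF-kB subunits and inhibitors Traf5 alone was called, at 255, 227 and 176 against 95.7, 92 and 67.8 CPM (1.36 ± 0.2, adjusted p = 0.000829).

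Of 11 chemokines 2 were higher and none lower. Ccl3, a chemokine of activated T cells, stood at 574, 833 and 494 CPM in the SV40-I libraries and 21.1, 12.7 and 15.5 CPM in the OT-I libraries (5.27 ± 0.48, adjusted p = 3.19e-05). The related Ccl4 was at 1195, 1559 and 995 against 109, 101 and 101 CPM (3.59 ± 0.31, adjusted p = 2.06e-05). Of 16 cytokines 3 were higher. Csf1, the macrophage growth factor, was at 23.3, 6.23 and 9.14 against 0.047, 0.124 and 0 CPM (7.78 ± 1.54, adjusted p = 0.00612). Il10 was low in SV40-I libraries at 0.248, 1.36 and 2.13 CPM and had at most 3 counts over the OT-I group, a ratio of 55.9, with a 95% counting interval of 19.1 to 271 (adjusted p = 0.00933). Csf2, which encodes GM-CSF, was at 3.03, 4.59 and 2.71 against 0.118, 0.249 and 0.427 CPM (3.69 ± 0.79, adjusted p = 0.0146, but up to 0.0725 without OT-I library 1 or OT-I library 2). Il2 was lower at 0.124, 0 and 0.107 against 2.66, 3.73 and 2.01 CPM (-5.18 ± 1.15, adjusted p = 0.0126). The effector cytokine genes were not called. Ifng was at 27.3, 31.6 and 22.6 against 51.8, 58.7 and 28.7 CPM with overlapping groups (adjusted p = 0.448). Tnf was at 16.7, 18.3 and 11.9 against 25.4, 32.6 and 17.9 CPM (adjusted p = 0.414).

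Killing genes did not move one way, with 3 of 20 higher and 2 lower. Gzmm, a granzyme of NK and innate-like T cells, was lower at 1.94, 0.551 and 1.46 CPM in the SV40-I libraries and 232, 169 and 254 CPM in the OT-I libraries (-7.38 ± 1.32, adjusted p = 0.00348). Gzma was higher at 1162, 3114 and 3624 against 651, 376 and 466 CPM (2.4 ± 0.66, adjusted p = 0.0382, but up to 0.15 without SV40-I library 2, SV40-I library 3, OT-I library 1, OT-I library 2 or OT-I library 3). The genes most used to mark cytotoxic cells were not called. Prf1, the gene of perforin, was at 1480.2, 1128 and 1238 against 1184, 799 and 981 CPM (adjusted p = 0.454). Gzmb was at 935, 1588 and 1593 against 918, 889.7 and 731 CPM (adjusted p = 0.319). Serpinb9, the inhibitor that protects cells from granzyme B, was lower at 81.8, 101 and 137 against 289, 201 and 315 CPM (-1.33 ± 0.3, adjusted p = 0.013, but up to 0.0616 without SV40-I library 1, SV40-I library 2 or OT-I library 3). In the list of BCL2 and apoptosis genes, 4 of 25 were higher and 2 lower. Bcl2l11, which encodes the death activator BIM, was at 487, 445 and 729 against 159.5, 169 and 237 CPM (1.55 ± 0.45, adjusted p = 0.0462, but up to 0.169 without any 1 of the 6 libraries). Bcl2 was not called, at 95.9, 161 and 169 against 111, 81.3 and 145 CPM (adjusted p = 0.775).

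Receptors of the NK type split, with 7 of 23 higher and 4 lower. Klrg1, a mark of terminal effector cells, stood at 1.32, 0.588 and 1.31 CPM in the SV40-I libraries and 364, 265 and 241 CPM in the OT-I libraries (-8.08 ± 1.14, adjusted p = 0.00071). Klrb1f had no count in SV40-I libraries and 2.02, 4.18 and 2.97 CPM in OT-I libraries, which makes it at least 143-fold lower (adjusted p = 0.00507). Ly49 receptor genes went the other way. Klra6 was at 9.23, 10.3 and 9.59 CPM in SV40-I libraries with no count in OT-I libraries, at least 422-fold higher (adjusted p = 0.000192). Klra7 was at 8.51, 41.9 and 26.1 against 0.941, 0 and 0.192 CPM (6.07 ± 1.13, adjusted p = 0.00452). Klra genes are close copies of each other, so the assignment among them is uncertain. Fcer1g, a signalling adaptor of NK receptors, was at 154, 226 and 176 against 5.74, 10.9 and 16.8 CPM (4.06 ± 0.65, adjusted p = 0.00164). Summed NK markers overlapped between the groups, at 407 to 450.3 CPM in SV40-I and 348 to 699 CPM in OT-I libraries.

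The TNF receptor family also split, 4 of 15 higher and 3 lower. Tnfrsf9, the costimulatory receptor 4-1BB (chr4:150914562-150946102), stood at 1893, 1477 and 1322 CPM in the SV40-I libraries and 12.7, 28.7 and 27.8 CPM in the OT-I libraries (6.08 ± 0.4, adjusted p = 3.91e-06). Tnfrsf1b, the TNF receptor TNFR2, was abundant in both at 2966, 2330.2 and 2941 against 897, 759 and 787 CPM (1.75 ± 0.34, adjusted p = 0.00596). Tnfrsf25, the receptor DR3, was nearly absent from SV40-I libraries (0, 0 and 0.043 against 117, 99.8 and 109 CPM), with at most 3 counts over the group and a ratio of OT-I to SV40-I of 7698, with a 95% counting interval of 2131 to 63563 (adjusted p = 5.64e-05). Fas, the death receptor, was lower at 1.34, 1.43 and 2.41 against 35.4, 33.7 and 40.5 CPM (-4.4 ± 0.37, adjusted p = 1.65e-05). Tnfrsf26 was at 7.15, 5.18 and 7.48 against 66.8, 58.5 and 65.3 CPM (-3.27 ± 0.28, adjusted p = 2.03e-05). Among ligands, Tnfsf8, which encodes CD30 ligand, was at 52.3, 114 and 99.5 against 12.1, 11.9 and 13.5 CPM (2.82 ± 0.47, adjusted p = 0.00217). Tnfsf14, known as LIGHT, was at 28.9, 14.2 and 10.2 against 99.3, 66.3 and 81.1 CPM (-2.21 ± 0.41, adjusted p = 0.00431). Cd40lg had no count in SV40-I libraries and 5.48, 15.5 and 5.62 CPM in OT-I libraries (at least 406-fold lower, adjusted p = 0.023; adjusted p up to 0.0665 without SV40-I library 1, SV40-I library 2, SV40-I library 3 or OT-I library 2).

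In the list of CD28, CD2 and SLAM family genes 4 of 17 were lower and 2 higher. The 2 that were higher were Cd7 and the adaptor Sh2d2a, whose levels are given above. Cd28, the main costimulatory receptor, stood at 3.05, 18.2 and 17.5 CPM in the SV40-I libraries and 181, 214 and 206 CPM in the OT-I libraries (-3.95 ± 0.82, adjusted p = 0.00901). Slamf6, a mark of progenitor cells among exhausted cells, was at 0.893, 4.13 and 2.49 against 104, 114 and 110.1 CPM (-5.44 ± 0.98, adjusted p = 0.00366). Ly9 was at 144, 121 and 149.5 against 450.3, 554 and 532 CPM (-1.89 ± 0.21, adjusted p = 0.000122). The adhesion receptor Cd2 was at 247, 297 and 403 against 1289.8, 977 and 1191 CPM (-1.87 ± 0.37, adjusted p = 0.00625). Cd7 was higher at 3153, 3170.2 and 5683 against 423, 353 and 452 CPM (3.29 ± 0.83, adjusted p = 0.0261, but up to 0.108 without SV40-I library 3, OT-I library 1, OT-I library 2 or OT-I library 3). In the marker-high libraries, which share in the estimate of spread, Cd7 stood at 251, 214 and 3396 CPM.

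Cytokine receptors were lower in 8 of 25 and higher in 3. Il7r, needed for survival of naive and memory cells, stood at 0, 0.0735 and 0.129 CPM in the SV40-I libraries and 31.3, 68 and 179 CPM in the OT-I libraries (-10.32 ± 1.32, adjusted p = 0.000356). Both chains of the IL-18 receptor were lower. Il18rap was at 0.447, 3.79 and 6.84 against 408, 447 and 409 CPM (-6.83 ± 1.28, adjusted p = 0.00479). Il18r1 was at 0.645, 5.73 and 0.709 against 76.8, 57.9 and 53.2 CPM (-4.72 ± 1.29, adjusted p = 0.0378, but up to 0.128 without SV40-I library 1, SV40-I library 3, OT-I library 1, OT-I library 2 or OT-I library 3). Ifngr1, a chain of the interferon gamma receptor, was at 403, 316 and 579 against 1500.4, 1517 and 1189 CPM (-1.7 ± 0.26, adjusted p = 0.0013). Il17ra was at 18, 8.75 and 11.6 against 58.9, 66.6 and 50.7 CPM (-2.2 ± 0.27, adjusted p = 0.000269). Il4ra was at 201, 149 and 137 against 418, 374 and 443 CPM (-1.34 ± 0.27, adjusted p = 0.00797). Il2ra, the high affinity chain for IL-2, was low in both groups (1.22, 0.57 and 0.752 against 11.6, 19.98 and 14.2 CPM; -4.17 ± 0.98, adjusted p = 0.0178, but up to 0.0703 without SV40-I library 2 or SV40-I library 3). Il2rb, shared by the receptors for IL-2 and IL-15, was the most abundant gene that was higher, but its call rested on all libraries (12319, 11635 and 12014 against 5585, 3867 and 6498 CPM; 1.17 ± 0.34, adjusted p = 0.0489, but up to 0.201 without any 1 of the 6 libraries). In the marker-high libraries, which share in the estimate of spread, Il2rb stood at 2951, 3151 and 8611 CPM. Their part in the lost calls was not tested. Of the TGF-beta pathway 3 of 15 were lower and none higher. The signal transducer Smad3 was at 2.03, 1.21 and 3.53 against 45, 25 and 36.1 CPM (-3.97 ± 0.45, adjusted p = 0.000136). Its corepressor Ski was at 3.03, 2.92 and 1.14 against 14, 17.5 and 14.4 CPM (-2.69 ± 0.45, adjusted p = 0.00216). Only Jak1 and Jak3 were called among 23 JAK, STAT and SOCS genes. Jak1 was lower (61.4, 113 and 123 against 162, 364 and 259.6 CPM; -1.4 ± 0.38, adjusted p = 0.0377, but up to 0.142 without SV40-I library 1, SV40-I library 2, SV40-I library 3, OT-I library 2 or OT-I library 3), and Jak3 was higher with overlapping groups, led by SV40-I library 1 (799, 290.2 and 188 against 119, 193 and 72.1 CPM; 1.73 ± 0.48, adjusted p = 0.0405, but up to 0.226 without SV40-I library 1, OT-I library 1 or OT-I library 3).

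Interferon-stimulated genes encode antiviral proteins and are switched on by the ISGF3 complex at elements with the repeated letters GAAA. Of the 50 tested, 18 were lower in SV40-I cells and none higher, with a median of -1.35 against -0.05 over all genes. To show the sequences these genes share, 60 bases around the first match to GAAA, any 2 bases and GAAA again (both strands searched) are printed from the 250 bases before the start of 5 of them, taken from RefSeq on GRCm38.p6 and read 5′ to 3′ on the strand of the gene. Capitals mark the match, which reads TTTC, 2 bases and TTTC where it lies on the other strand. The window of Igtp holds 59 bases.
Oas3, chr5:120777700-120777759, minus strand: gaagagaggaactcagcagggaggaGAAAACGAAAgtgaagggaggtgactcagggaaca
Ifit3, chr19:34583348-34583407, plus strand: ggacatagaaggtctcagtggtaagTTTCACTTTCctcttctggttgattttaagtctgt
Gbp3, chr3:142559974-142560033, plus strand: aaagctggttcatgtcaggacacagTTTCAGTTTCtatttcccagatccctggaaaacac
Igtp, chr11:58199497-58199555, plus strand: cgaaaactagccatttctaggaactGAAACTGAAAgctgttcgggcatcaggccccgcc
Bst2, chr8:71537568-71537627, minus strand: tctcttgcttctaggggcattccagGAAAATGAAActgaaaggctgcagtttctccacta

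The match lay 65 bases before the start in Oas3, 146 in Ifit3, 35 in Gbp3, 24 in Igtp and 120 in Bst2. Ifit3b, a near copy of Ifit3, has the same letters in its window. Promoters in RefSeq were matched by symbol for 9869 of the 16247 genes, of which 329 (3.33%) held the motif. It was present in 10 of 541 promoters of genes that were higher (1.85%) and in 28 of 446 of genes that were lower (6.28%). Among interferon-stimulated genes it was in 10 of the 15 promoters of those that were lower (66.7%) and in 12 of the 23 of those not called (52.2%), so members with and without a call both carried it. The 10 are also among the 28 promoters of lower genes. Each of 4 other motifs was searched on its own in the same windows, where matches may overlap. An NR4A element (AAAGGTCA) was in 0.924% of promoters of higher, 1.57% of lower and 1.32% of all genes, a cyclic AMP element (TGACGTCA) in 2.59%, 1.57% and 3.00%, an AP-1 element (TGANTCA) in 6.28%, 6.28% and 5.62%, and a heat shock element (GAA, TTC and GAA with any 2 bases between them) in 0, 0.897% and 0.466%.

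Oas3, of the family that makes the second messenger of the antiviral RNase L pathway, stood at 3.77, 16.9 and 7.03 CPM in the SV40-I libraries and 151, 190.1 and 258 CPM in the OT-I libraries (-4.43 ± 0.59, adjusted p = 0.000503). Ifit3, which helps to bind foreign RNA, was at 9.08, 15.2 and 11.8 against 133, 266 and 191 CPM (-4.03 ± 0.58, adjusted p = 0.000791). Ifit3b was at 0.0744, 2.003 and 0.365 against 27.8, 53.6 and 30.3 CPM (-5.49 ± 1.07, adjusted p = 0.00599). Usp18, which removes ISG15 and dampens interferon signalling, was at 30.4, 35.3 and 32.4 against 178, 214 and 211 CPM (-2.62 ± 0.35, adjusted p = 0.000505). In all 4, each SV40-I library was below each OT-I library. Samhd1, which depletes nucleotides, was at 190.4, 197 and 196 against 489.7, 631 and 439 CPM (-1.42 ± 0.22, adjusted p = 0.00141). The virus tether Bst2 was at 39.5, 59.7 and 51 against 129, 118 and 153 CPM (-1.41 ± 0.29, adjusted p = 0.00732). The GTPase Igtp was at 190.3, 235 and 239 against 589, 532 and 551 CPM (-1.33 ± 0.25, adjusted p = 0.00452). Gbp3, a guanylate-binding protein, was lower with a call that 3 libraries decided (5.04, 8.75 and 5.31 against 28.6, 64.3 and 26.1 CPM; -2.64 ± 0.57, adjusted p = 0.0111, but up to 0.0523 without SV40-I library 1, SV40-I library 3 or OT-I library 2). Mx1, a GTPase against influenza virus, was at 9.16, 5.26 and 1.53 against 28.2, 63.1 and 20.5 CPM (-2.81 ± 0.71, adjusted p = 0.0252, but up to 0.105 without SV40-I library 2, SV40-I library 3 or OT-I library 2), and Slfn5 was the one called member with overlapping groups (0, 0.184 and 0.0645 against 0.118, 4.8 and 3.52 CPM; -4.99 ± 1.17, adjusted p = 0.0168, but up to 0.0693 without SV40-I library 3 or OT-I library 2). The well known member Isg15 was not called, at 10.5, 21.8 and 16.5 against 28.8, 40.4 and 44.2 CPM (adjusted p = 0.0955). Naive means were 259 CPM for Usp18 and 782 CPM for Igtp, above all OT-I libraries, and 137 CPM for Oas3, below them.

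**Figure D4:**
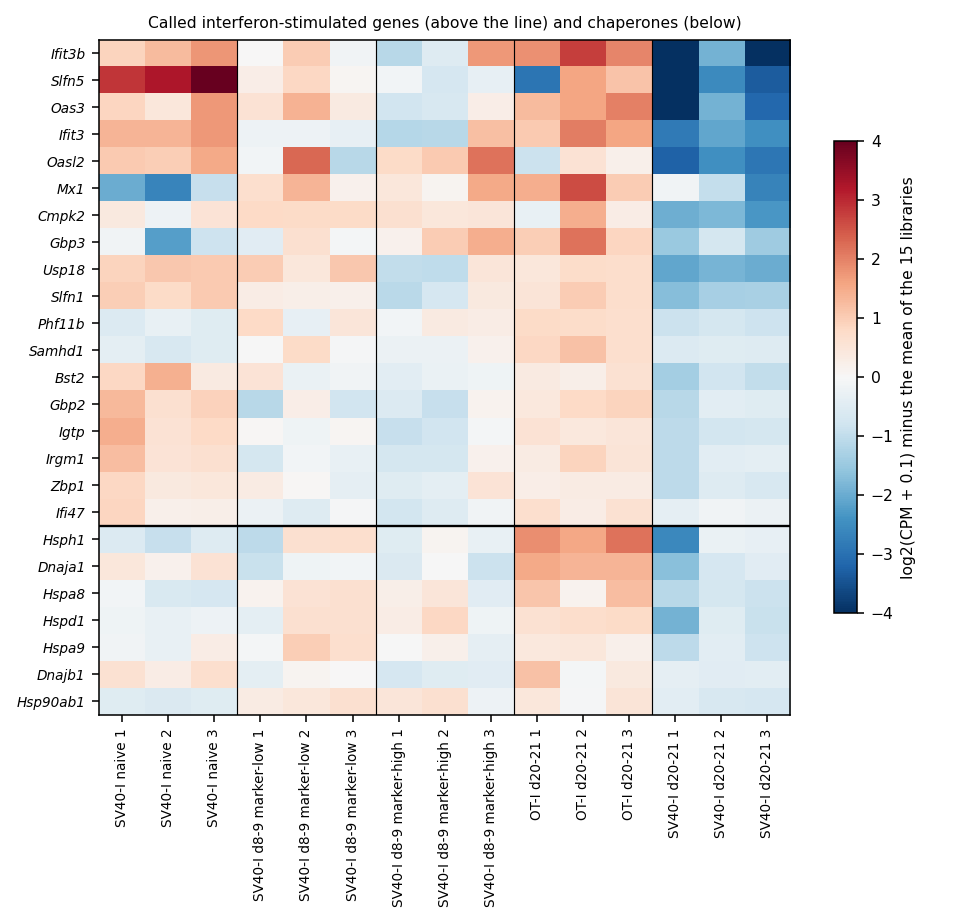
Each column is 1 of the 15 ex vivo libraries and each row a gene; colour gives log2(CPM + 0.1) minus the mean of that gene over the 15 libraries. The 18 interferon-stimulated genes called lower (above the line) and the 7 chaperones called lower (below) are at their lowest in the columns of SV40-I cells of days 20 to 21 for most genes, and the chaperone Hsph1 is highest in the OT-I columns.

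Heat shock chaperones, which fold proteins, were lower in 7 of 19 and higher in none (median -1.003). Hspa8, the constitutive HSP70 and one of the most abundant genes that differed, stood at 510.1, 662 and 599 CPM in the SV40-I libraries and 2325, 1189.5 and 2556 CPM in the OT-I libraries (-1.78 ± 0.3, adjusted p = 0.00256). Hsph1, its exchange factor, was at 8.11, 40.8 and 39.3 against 179.9, 144 and 223 CPM (-2.63 ± 0.55, adjusted p = 0.00921). The cochaperone Dnaja1 was at 11.4, 23.3 and 26.7 against 105, 95.4 and 95.3 CPM (-2.27 ± 0.33, adjusted p = 0.000929). The mitochondrial chaperone Hspd1 was at 14, 37 and 27.9 against 79.4, 83.9 and 88.3 CPM (-1.67 ± 0.36, adjusted p = 0.0118). SV40-I libraries were below all OT-I libraries in each, and library 1 was lowest for Hsph1, Dnaja1 and Hspd1. Naive means of Dnaja1 and Hsph1, 49.2 and 31.4 CPM, were also below all OT-I libraries.

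Metabolic lists were mixed. In glycolysis 3 of 30 were higher and 4 lower. Pfkm, a phosphofructokinase, was at 52.6, 31.9 and 28.5 against 9.69, 12.1 and 14.6 CPM (1.64 ± 0.36, adjusted p = 0.0121, but up to 0.0617 without SV40-I library 1, OT-I library 1 or OT-I library 2). Slc16a1, the lactate transporter MCT1, was at 19.7, 9.06 and 4.58 against 60.8, 91.3 and 29.7 CPM (-2.45 ± 0.58, adjusted p = 0.0189, but up to 0.0802 without SV40-I library 2, SV40-I library 3 or OT-I library 2). Gapdh was not called, at 912, 901 and 991 against 736, 580.3 and 893 CPM (adjusted p = 0.548). Of 17 amino acid transporters Slc1a5, which imports glutamine, was higher at 125, 70.4 and 49.9 against 19.5, 19.3 and 19.4 CPM (2.08 ± 0.31, adjusted p = 0.000992). Slc43a1, which carries large neutral amino acids, was lower at 0, 0.0735 and 0.817 against 20.4, 17.8 and 23.7 CPM (-6.1 ± 1.26, adjusted p = 0.00837). The mitochondrially encoded mt-Cytb was lower at 27.7, 55 and 34.2 against 153, 272 and 107 CPM (-2.19 ± 0.39, adjusted p = 0.00355), in libraries whose mitochondrial share was lower throughout. Among sterol and fatty acid synthesis genes 2 of 28 were higher and 1 was lower. Fdft1, squalene synthase, was higher at 78.7, 73.1 and 72.9 against 37.3, 37.8 and 37.6 CPM (0.99 ± 0.16, adjusted p = 0.00136). Sqle, the next enzyme, was lower at 4.29, 6.62 and 4.04 against 20.1, 15.1 and 17 CPM (-1.8 ± 0.37, adjusted p = 0.00831).

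Mki67, a mark of dividing cells, was scarce in both groups, at 1.09, 1.19 and 0 against 0.0235, 1.02 and 0.918 CPM (adjusted p = 0.967). Of the 40 tested, Cdk6, a kinase of entry into the cycle, was higher at 32.8, 52.7 and 65.9 against 3.48, 6.72 and 7.67 CPM (3.08 ± 0.6, adjusted p = 0.00597). Cdkn2c, an inhibitor of that kinase, was higher at 32.1, 36.6 and 47.8 against 6.44, 5.27 and 5.32 CPM (2.77 ± 0.57, adjusted p = 0.00836). E2f2 was lower at 2.06, 3.07 and 4.99 against 29.1, 28.9 and 32 CPM (-3.15 ± 0.35, adjusted p = 0.000117). Cdkn2d, another inhibitor, was at 73.6, 75.9 and 85.5 against 291, 207 and 290.2 CPM (-1.75 ± 0.27, adjusted p = 0.00136). Among genes of DNA methylation and Polycomb, 1 of 21 was higher and 2 were lower. Dnmt3b, a de novo methyltransferase, was higher at 31.6, 22.2 and 13.6 against 4.8, 5.57 and 6.28 CPM (2.02 ± 0.39, adjusted p = 0.00588). Tet3, which oxidises methylcytosine, was lower at 18.7, 15.3 and 12.9 against 41.2, 44.6 and 35.3 CPM (-1.37 ± 0.22, adjusted p = 0.00159). Eed, a subunit of Polycomb complex PRC2, was lower at 11.2, 13.7 and 14.7 against 48.4, 66.8 and 42.8 CPM (-1.998 ± 0.3, adjusted p = 0.000971).

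In the list of MHC class I and antigen processing genes, 1 of 24 was higher (4.17%) and 2 were lower (8.33%). The shares over all tested genes were 4.86% and 4.14%. The interval of 16 of the 24 lay within 1 on the log2 scale. H2-Q10, whose secreted product comes mainly from the liver, was lower at 6.15, 28 and 7.05 CPM in the SV40-I libraries and 313, 231 and 217 CPM in the OT-I libraries (-4.2 ± 0.64, adjusted p = 0.00119). Summed hepatocyte transcripts stood at 55.2, 1734 and 82.7 CPM in the same SV40-I libraries and at 45.0, 1105 and 2144 CPM in the same OT-I libraries. Their part in this difference was not tested. H2-Q2 was higher at 7.72, 3.91 and 5.46 against 0.847, 0.846 and 0.811 CPM (2.77 ± 0.54, adjusted p = 0.00573), and these close copies share sequence.

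Ion channels and receptors of small mediators gave some of the widest differences. In the list of calcium and potassium channels 3 of 21 were higher and 6 lower. Kcnj8, a subunit of ATP-sensitive potassium channels (chr6:142564837-142571614), stood at 0, 0 and 0.0215 CPM in the SV40-I libraries and 289, 173 and 216 CPM in the OT-I libraries. With at most 3 counts over the SV40-I group its ratio of OT-I to SV40-I was 32021, with a 95% counting interval of 5747 to 1264750.0 (adjusted p = 3.91e-06). Orai2, a pore subunit of calcium channels, was lower at 76, 58.8 and 75.1 against 289.9, 235 and 169 CPM (-1.73 ± 0.28, adjusted p = 0.00177). Itpr1, the IP3 receptor of the calcium store, was at 3.35, 5.68 and 3.96 against 16.8, 27.8 and 35.9 CPM (-2.63 ± 0.49, adjusted p = 0.00474). Orai3 was higher at 219, 164 and 186 against 96.3, 82.8 and 77.5 CPM (1.15 ± 0.25, adjusted p = 0.0118, but up to 0.057 without OT-I library 2 or OT-I library 3).

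Of 13 genes for neuropeptides, their receptors and amine receptors, 5 were higher and 1 lower. Calcb, the gene of the neuropeptide CGRP-beta (chr7:114718643-114723365), stood at 209, 261 and 154 CPM in the SV40-I libraries and 0.0706, 0.0498 and 0 CPM in the OT-I libraries (12.29 ± 0.62, adjusted p = 3.91e-06). Calca, the neighbouring gene for calcitonin and CGRP-alpha, was at 5.34, 4.56 and 3.74 CPM with no count in OT-I libraries (at least 195-fold higher, adjusted p = 0.0113). Vipr2, a receptor for vasoactive intestinal peptide, was at 59.8, 36.4 and 37.5 CPM in SV40-I libraries, with at most 3 counts over OT-I libraries, a ratio of 5623, with a 95% counting interval of 1009 to 222099 (adjusted p = 0.00348). Glp1r, the receptor for glucagon-like peptide 1, was at 109, 84.8 and 63.5 against 0.682, 0 and 0.32 CPM (7.99 ± 1.3, adjusted p = 0.00299). Adrb1, an adrenergic receptor, was at 1.59, 2.44 and 1.999 against 0.188, 0.199 and 0.0641 CPM (3.72 ± 0.86, adjusted p = 0.0196, but up to 0.0807 without SV40-I library 2, SV40-I library 3, OT-I library 1, OT-I library 2 or OT-I library 3). In the 3 marker-high libraries of days 8 to 9 Calcb stood at 82.6, 83.9 and 125 CPM, against a mean of 0.963 CPM in marker-low cells. Vipr2 stood at 1.21, 1.92 and 62.6 CPM and Glp1r at 8.6, 7.13 and 62 CPM in the same marker-high libraries, with library 3 far above the others, and both were at 0 in marker-low cells.

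Outside the lists, the largest fitted folds among genes of at least 20 CPM in the higher group reached genes with no known place in T cells. Mrc2, an endocytic collagen receptor of fibroblasts (chr11:105292643-105351139), was at 199, 235 and 168 CPM in SV40-I libraries with at most 3 counts over OT-I libraries, a ratio of 13125, with a 95% counting interval of 3633 to 108377 (adjusted p = 0.00115). Sfrp4, a secreted WNT inhibitor (chr13:19623104-19632994), was at 27.7, 66.4 and 47.9 CPM with no count in OT-I libraries (at least 2127-fold higher, adjusted p = 0.0196; adjusted p up to 0.0641 without OT-I library 1, OT-I library 2 or OT-I library 3). Insrr, an orphan relative of the insulin receptor, was at 35.9, 37.6 and 31.2 CPM with no count in OT-I libraries (at least 1511-fold higher, adjusted p = 0.00866). Insrr overlaps Pear1, also higher (adjusted p up to 0.131 without SV40-I library 1, OT-I library 1, OT-I library 2 or OT-I library 3), on the opposite strand, and the counting ignored strand. Epdr1, an ependymin-related protein, was at 158, 141 and 94.7 against 0, 0.0498 and 0.107 CPM (11.19 ± 1.41, adjusted p = 0.000312). Csdc2, an RNA-binding protein, was at 82.3, 193 and 111 against 0.259, 0.0249 and 0.0214 CPM (10.28 ± 1.32, adjusted p = 0.000735). Slc16a11, a monocarboxylate transporter, was at 74.9, 40.7 and 34.6 against 0.0235, 0.124 and 0.128 CPM (9.04 ± 0.98, adjusted p = 9.95e-05). Gcsam, a germinal centre signalling protein, was at 30.1, 57.9 and 35.8 CPM with at most 3 counts over OT-I libraries, a ratio of 2764, with a 95% counting interval of 765 to 22822 (adjusted p = 0.0206; adjusted p up to 0.0944 without OT-I library 1, OT-I library 2 or OT-I library 3). Glis1, a zinc finger factor, was at 9.65, 27.6 and 33.2 CPM with at most 3 counts over OT-I libraries, a ratio of 3153, with a 95% counting interval of 566 to 124544 (adjusted p = 0.0109; adjusted p up to 0.0623 without OT-I library 1, OT-I library 2 or OT-I library 3). Ugt1a7c, of a locus whose genes share exons, was at 51.4, 46.7 and 24.5 against 0, 0 and 0.278 CPM (8.69 ± 1.98, adjusted p = 0.0149, but up to 0.0709 without OT-I library 1 or OT-I library 2).

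On the lower side, Emp1, a membrane protein of epithelia, was at 0.0248, 0.0184 and 0.043 against 101, 61.6 and 68.9 CPM (-11.27 ± 1.78, adjusted p = 0.00138). Rap1gap2, which switches RAP1 off, stood at 0.174, 0.0551 and 0 against 169, 113 and 106 CPM (-10.74 ± 1.1, adjusted p = 6.7e-05). Reck, an inhibitor of metalloproteinases, was at 0.248, 0.0368 and 0.043 against 76.1, 68.2 and 54.6 CPM (-9.28 ± 0.79, adjusted p = 2.02e-05). SV40-I libraries were close to 0 for these 3. Pdlim1, a cytoskeletal adaptor, was at 1.49, 2.995 and 2.02 against 165, 134 and 178 CPM (-6.19 ± 0.58, adjusted p = 3.45e-05). Gramd3 was at 9.7, 2.66 and 3.03 against 840.0, 928 and 637 CPM (-7.29 ± 0.82, adjusted p = 0.000136). Cmah, which hydroxylates sialic acid, was at 0, 1.95 and 0.408 against 39.5, 68.7 and 58.9 CPM (-6.12 ± 1.26, adjusted p = 0.00835). Kbtbd11 was at 0, 0.0368 and 0.15 against 25, 29.4 and 35.3 CPM (-8.82 ± 1.19, adjusted p = 0.000509). Wdr95 was at 0.695, 0.496 and 0.193 against 124, 75.3 and 127 CPM (-7.88 ± 1.39, adjusted p = 0.00317). Nck2, an adaptor between receptors and actin, was at 0, 1.03 and 0 against 40.1, 43.1 and 25.9 CPM (-6.68 ± 1.7, adjusted p = 0.0268, but up to 0.0721 without SV40-I library 1, SV40-I library 3, OT-I library 1 or OT-I library 2). The phospholipase Plcd1 was at 0.0744, 0.404 and 0.989 against 42.2, 20.4 and 34 CPM (-6.03 ± 1.28, adjusted p = 0.0133, but up to 0.0528 without SV40-I library 2).

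The most abundant genes that differed changed by less. Of those that were higher, Ctsb, a lysosomal protease, was at 2811, 2694 and 2560.2 against 989, 762 and 1047 CPM (1.53 ± 0.26, adjusted p = 0.00227). Ucp2, a mitochondrial carrier, was at 3585, 3465 and 4566 against 2374, 1896 and 2623 CPM (0.75 ± 0.15, adjusted p = 0.00778, but up to 0.0582 without OT-I library 2). Arl6ip1, of the endoplasmic reticulum, was at 2604, 2798 and 2626 against 1244, 1047 and 1273 CPM (1.17 ± 0.13, adjusted p = 0.000117). Of those that were lower, Anxa6, a calcium-dependent membrane protein, was at 2279, 1928 and 1771 against 4395, 3123 and 4237 CPM (-0.98 ± 0.17, adjusted p = 0.00307). Txnip, an inhibitor of glucose uptake, was at 638, 473 and 879 against 3799.6, 1978 and 3195 CPM (-2.17 ± 0.35, adjusted p = 0.0019). Flna, which crosslinks actin, was at 288, 537 and 470.1 against 3079.8, 1913 and 3955 CPM (-2.79 ± 0.36, adjusted p = 0.000422). Ly6e was at 1844, 1648 and 1645 against 3140.1, 2466 and 3726 CPM (-0.86 ± 0.19, adjusted p = 0.0127, but up to 0.0621 without SV40-I library 2, SV40-I library 3 or OT-I library 3). Slfn2, which keeps T cells quiescent in mice, was at 973, 1242 and 1461 against 2248, 1788 and 2155 CPM (-0.75 ± 0.18, adjusted p = 0.0187, but up to 0.0854 without SV40-I library 1, SV40-I library 2, OT-I library 1 or OT-I library 3).

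Naive SV40-I cells gave a reference for these differences. On the log2(CPM + 0.1) scale, the naive mean lay nearer to OT-I than to SV40-I cells for 637 of the 790 genes that were higher (80.6%) and for 481 of the 672 that were lower (71.6%), against 61.3% of all genes tested. Relative to naive cells, the median of the higher genes was 1.93 in SV40-I cells and -0.02 in OT-I cells, and that of the lower genes was -1.68 and 0.32. OT-I and SV40-I cells of days 20 to 21 both exceeded naive cells in 353 of the 790 higher genes, against 6168 of all 16247 genes tested. Both lay below naive cells in 252 of the 672 lower genes, against 5425 of all genes tested. Neither count is far from the share over all genes. Other positions were further from it. The naive mean lay between the groups for 397 of the 790 and 351 of the 672, against 4654 of all genes tested. It lay above both groups in 40 of the 790, against 5425 of all genes tested. It lay below both in 69 of the 672, against 6168 of all genes tested. These are descriptions with no test, and naive cells carry the receptor of the SV40-I group.

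For a few genes OT-I cells stood apart from SV40-I cells of every state. All 12 ex vivo SV40-I libraries, naive ones included, were more than 4 times above every OT-I library for 9 genes and more than 4 times below for 15, with libraries under 3 counts put at that floor. These were chosen for this pattern and are described without a test. Fut10, a fucosyltransferase (chr8:31187331-31261738), averaged 223 CPM in naive, 232 in marker-low, 315 in marker-high and 488 in SV40-I cells of days 20 to 21, and stood at 0.047, 1.09 and 0.299 CPM in OT-I libraries. Izumo1r, which encodes folate receptor 4, averaged 41.9 CPM in naive and 263 CPM in late SV40-I cells, and stood at 0.306, 4.5 and 2.26 CPM in OT-I libraries. Ephx1, a detoxifying epoxide hydrolase, averaged 343 and 674 CPM in these SV40-I groups and stood at 18.3, 32.5 and 36.3 CPM in OT-I libraries. Trpm1, Angptl2, Ikzf2 and Cxxc5 had the same pattern, as did 2 clone-named loci. In the opposite direction, Ctse, an endosomal protease, stood at 760.1, 637 and 632 CPM in OT-I libraries against means of 41.9 CPM in naive and 25.4 CPM in late SV40-I cells. Esm1, a proteoglycan known from endothelium, stood at 15.7, 25 and 6.92 CPM in OT-I libraries and at means of at most 0.0317 CPM in all SV40-I groups. Kcnj8, Emp1, S1pr5, Klrg1, Il18rap, Itgb1 and Plcd1 were among the others, along with 3 clone-named loci. The remaining members lost their call on omission of a library, Cyp17a1 with an adjusted p up to 0.0989 without SV40-I library 1, SV40-I library 3, OT-I library 1 or OT-I library 2, Cdhr1 up to 0.124 without any 1 of the 6 libraries and Srcin1 up to 0.119 without any 1 of the 6 libraries. A difference of transgenic line and one of state cannot be told apart for these genes, since OT-I cells were sampled at days 20 to 21 only.

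**Figure D5:**
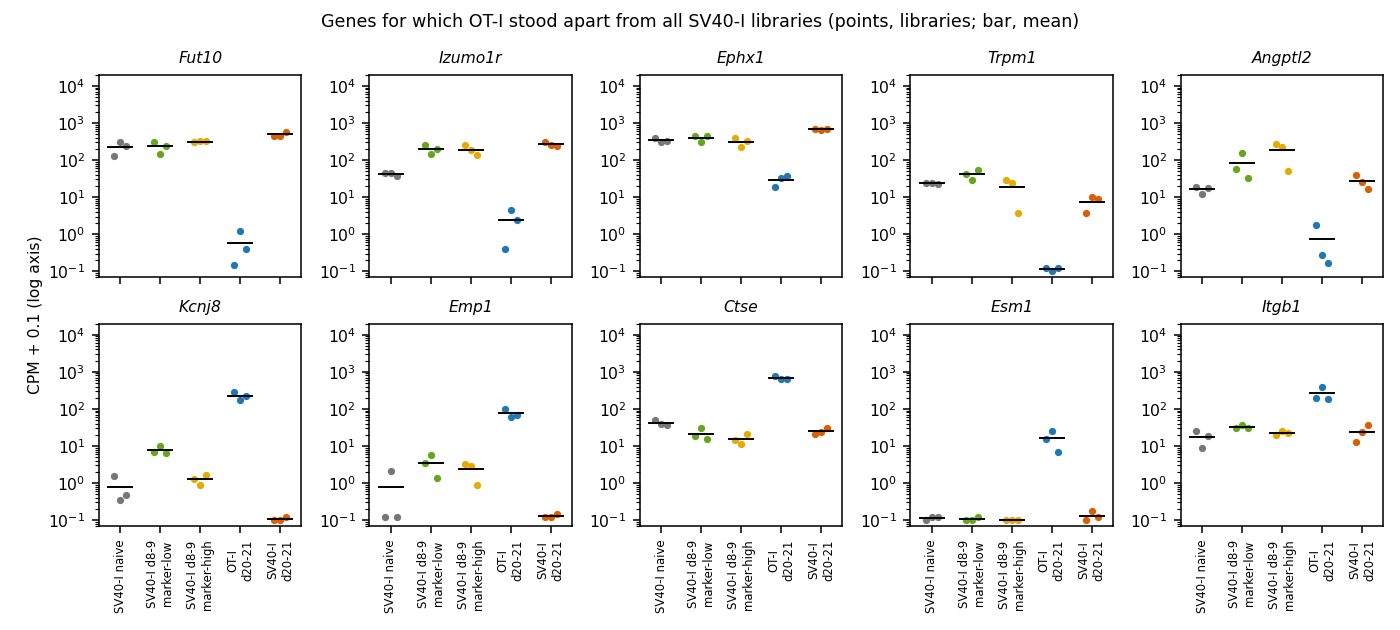
Levels of 10 of the 24 genes for which OT-I cells (blue) stood apart, as CPM + 0.1 on a log axis in all 15 ex vivo libraries; points are libraries and bars group means. In the upper row OT-I cells lie below all SV40-I groups and in the lower row above them.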

How the data were processed

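RNA of sorted cells was made into libraries with SMART-Seq v4 and Kapa kits and sequenced with paired ends, per the labels' protocols. The authors deposited whole-number counts of fragments per gene, made with featureCounts 1.6.2 in paired mode with GENCODE M17 gene names on GRCm38.p6 and no strand option, per the file headers. FastQC, STAR and DESeq2 are further tools named in the submitters' processing notes, and an aligner version is not given in the sources used here. Without strand, overlapping and antisense genes cannot be separated, and families of close copies (Cd200r, Klra, Ifit3, Ly6c, H2-Q, Ugt1a, Calca and Calcb) are uncertain. No molecular identifiers were used, so intervals and floors cover counting error only.

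Of 53656 genes listed, 16404 passed edgeR's filterByExpr over the 15 ex vivo libraries. Counts were scaled by TMM and fitted in 5 groups with edgeR 4.0.16 (robust quasi-likelihood, R 4.3.3), the contrast was SV40-I minus OT-I at days 20 to 21, and p-values were adjusted by Benjamini and Hochberg over all tested genes at 0.05. T cell receptor segments (260 listed, 157 tested, 17 called) were then left out. The standard error is the size of the log2 difference divided by the square root of the F statistic. No fitted fold is given where a group held at most 3 counts in sum. A floor of 3 counts over the group then gives a bound for a group at 0, and a ratio has its 95% counting interval. The fit was tested on simulated data with known changes. Cultured libraries were not used here, and some genes are not reported here.

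The comparison, the 37 lists and the members were chosen with earlier results of these data known. Genes were named by a rule: Pdcd1, Lag3, Entpd1 and Tox, the 2 called members of each list with the smallest p each way, the 10 largest folds each way at 20 CPM or more without overlap, and the 10 most abundant each way, 139 genes of which 100 kept their call without any 1 library. Other genes in the text were chosen after their values were seen. Promoter sequences were matched by symbol. Alternatives were RLE and upper-quartile scaling, no filter, a stricter filter, the 6 libraries alone, genes of other cells removed, each library left out, blocks on replicate numbers, hepatocyte transcripts as a covariate or their richest libraries left out, a tested fold of 2, and DESeq2 1.42.0.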

Additional observations from a re-analysis of the deposited data

How the results depend on the processing

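No gene was called in the direction opposite to the one reported under any alternative run. Counts of genes higher and lower in SV40-I cells, 790 and 672 as reported, were 787 and 655 with RLE scaling, 767 and 662 with upper-quartile scaling, 588 and 587 with no filter, 799 and 686 with a stricter filter, 837 and 594 with the 6 libraries alone, and 790 and 662 without segments, mitochondrial genes and genes of other cells. Leaving out 1 library at a time gave 412 to 585 and 446 to 511, with the lowest counts without OT-I library 2 (412 and 446). The higher count also fell by more than 1.5 times without SV40-I library 1 (513), OT-I library 1 (461) or OT-I library 3 (451), and the lower count without OT-I library 2.

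DESeq2 called 1336 and 1084 genes, and a test against a fold of 2 called 276 and 273. With the title number as a replicate block, 571 and 437 were called. Same-numbered libraries correlated at 0.27, 0.14 and -0.08 in their deviations from the group means. With 3 libraries a group these deviations depend on each other, so the values cannot settle whether the numbers pair the libraries. A block on the other number, in the names of the count tables, left 87 and 43. SV40-I library 3 (number 5) and OT-I library 1 (number 2) share that number with no library of the other group. Under this block they add nothing to the comparison, so its low counts cannot be read as dependence on that number. Of the pairs that share that number, SV40-I library 2 and OT-I library 3 correlated at 0.36, the highest of all pairs, and SV40-I library 1 and OT-I library 2 at -0.05. With hepatocyte transcripts as a covariate 644 and 573 were called, and 74 and 143 without the 3 libraries richest in them, which leaves fewer samples. For the other moved counts the cause was not tested. Of the 139 genes named by rule, the call was lost for 15 with the 6 libraries alone, 25 with the title block, 101 with the table-name block, 51 with the fold of 2, 89 without the hepatocyte-rich libraries, 9 with the covariate, 10 with no filter and 2 with DESeq2. Libraries of 3 a group limit what can be called: a gene not called is not shown to be equal.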

Other observations

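Of 9 genes of B and plasma cells tested in these sorted CD8 T cells, 2 were called and both were higher, with a list median of -0.20. Ighm, the constant region of IgM, was at 1722, 1328 and 1204 against 604, 591 and 638 CPM (1.22 ± 0.17, adjusted p = 0.00071). Ighd, the constant region of IgD, was at 129, 149 and 83.9 against 13.6, 22.9 and 15.3 CPM (2.8 ± 0.46, adjusted p = 0.00207). The summed B and plasma cell list stood at 1885 to 2183 CPM in SV40-I and 1033 to 1275 CPM in OT-I libraries, and Pax5, which defines B cells, had no count in any of the 6. The immunoglobulin genes Igha and Ighg3 were each high in a single library, and the summed list does not include Igha. Igha, the constant region of IgA, was at 0.0248, 0.202 and 1156 against 0.0706, 0.0746 and 0.0854 CPM (adjusted p = 0.124), and Ighg3 was at 0, 1.6 and 0.0215 against 567, 0.249 and 0.705 CPM (adjusted p = 0.104). Whether these transcripts came from T cells or from other cells was not tested.

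Lists of further cells were small in sum. Gamma delta T cell genes stood at 1.12 to 2.41 CPM in SV40-I and 11.7 to 14.8 CPM in OT-I libraries, with Il17a and Il23r at 0 in all 6. Endothelial and stromal genes stood at 24.8 to 28.2 CPM against 55.6 to 79.2 CPM. Genes of CD4 and regulatory T cells stood at 32.1 to 50.9 CPM against 47.4 to 64.6 CPM. Biliary and progenitor genes stood at 18.3 to 33.8 CPM against 8.87 to 29.5 CPM, with Krt7 and Krt19 at 0 in all 6. Epcam of that list, an epithelial adhesion gene, was at 5.68, 2.43 and 1.89 against 0.0235, 0 and 0.128 CPM (5.94 ± 1.73, adjusted p = 0.0467, but up to 0.156 without any 1 of the 6 libraries).

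Called genes were at times neighbours on a chromosome. There were 22 runs of at least 3 adjacent tested genes called in the same direction, 17 higher and 5 lower, with 75 genes in all, given as a description with no test. The longest held 5 genes, Cd200r1, Cd200r4, Cd200r2, Cd200r3 and Ccdc80 (chr16:44765736-45127924). Of these, Cd200r3 lost its call on omission of a library, with an adjusted p up to 0.129 without any 1 of the 6 libraries, and so did Ccdc80, up to 0.0641 without OT-I library 1, OT-I library 2 or OT-I library 3. Pear1, Insrr and Sh2d2a, all higher, span chr3:87747890-87855722, where the adjusted p of Pear1 was up to 0.131 without SV40-I library 1, OT-I library 1, OT-I library 2 or OT-I library 3. Tmprss6, Il2rb and C1qtnf6, all higher, span chr15:78439667-78531416. Each of the 3 lost its call on omission of a library, with an adjusted p up to 0.0745 without OT-I library 1 or OT-I library 2 for Tmprss6, up to 0.201 without any 1 of the 6 libraries for Il2rb and up to 0.13 without any 1 of the 6 libraries for C1qtnf6. The marker-high libraries, which share in the estimate of spread, differed widely for Tmprss6 (9.58, 10.3 and 221 CPM) and C1qtnf6 (15.3, 14.5 and 185 CPM). Nfic, Ncln, S1pr4 and Gna15, all lower, span chr10:81396186-81524225. The adjusted p of Nfic was up to 0.103 without SV40-I library 1, SV40-I library 2, OT-I library 1, OT-I library 2 or OT-I library 3, and that of Ncln up to 0.117 without SV40-I library 2, SV40-I library 3, OT-I library 1 or OT-I library 2. Among these are genes described above with no known place in T cells beside well known ones, such as Insrr next to Sh2d2a. Sfrp4 and Epdr1, both higher, lie 3176 bases apart, and Wdr95 and Hsph1, both lower, 2392 bases apart. With counting that ignores strand, fragments of one neighbour that run into the next cannot be told apart from its own transcripts. The share of tested genes called ran from 5.79% on chromosome X to 12.6% on chromosome 19.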
